A study of Mus musculus with 7 samples.

Results

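The genes described here encode the pyruvate dehydrogenase complex, the kinases and phosphatases that set its activity, and pyruvate carboxylase, as measured in flow-sorted pancreatic beta cells of 25-day-old mice. They were chosen by symbol, as the 10 genes Pdk1, Pdk2, Pdk3, Pdk4, Pdp1, Pdp2, Pdha1, Pdhb, Dlat and Pcx in the array annotation, out of 19938 genes. Each of the 10 had 1 probe set, and none of these probe sets was shared with another gene. All 7 mice carried insulin-Cre and Rosa26-LSL-YFP on the ICR background, so that a yellow fluorescent reporter marks cells in which the insulin promoter has driven Cre. The 3 weaned mice had been weaned prematurely at postnatal day 18, and the 4 suckling mice were still suckling when cells were taken at postnatal day 25. Each mouse gave 2000 to 6000 reporter-positive cells and 1 Affymetrix array.

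Pyruvate dehydrogenase joins glycolysis to the tricarboxylic acid cycle: it turns pyruvate into acetyl-CoA inside mitochondria. Pyruvate dehydrogenase kinases phosphorylate its E1 alpha subunit and switch the complex off, and the phosphatases switch it on again. Pyruvate carboxylase takes pyruvate the other way, into oxaloacetate, and this anaplerotic route is unusually active in beta cells, where pyruvate metabolism couples glucose to insulin release. Weaning moves a mouse from fat-rich milk to carbohydrate-rich chow, and the kinases are known for their response to fuel supply.

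Array medians lay between 14.1 and 14.9 intensity units. Of 12 beta cell markers 10 were measured, and their mean was 9.75 to 9.91 log2 units on weaned arrays and 9.79 to 9.89 on suckling arrays. Markers of alpha, delta and PP cells were also bright, with a mean over 9 of 12 markers of 8.77 to 9.10 log2 units on weaned and 8.67 to 9.04 on suckling arrays. Acinar markers set 2 arrays apart: suckling replicates 2 and 9 had means of 7.64 and 7.44 log2 units over the 13 of 17 markers measured, and the other suckling arrays had 4.10 and 5.06. Weaned replicates 4, 5 and 12 had 3.80, 3.62 and 5.94, and all 13 markers had a lower mean in weaned mice. Ptf1a, an acinar transcription factor, was at the background level in both groups, where background is the 1.80 to 3.15 log2 units of Xist and Y-linked genes on arrays that lack their signal. Ductal markers had means of 5.39 to 5.75 log2 units on weaned and 5.39 to 6.20 on suckling arrays, 3 higher and 2 lower in weaned mice. Endothelial and stromal markers had means of 3.14 to 3.30 on weaned and 3.14 to 3.57 on suckling arrays, 3 higher and 8 lower. Of the leukocyte markers 2 were higher and 5 lower. In such bulk samples fewer cells of a type and less RNA per cell cannot be told apart. Array descriptions carry one code on all weaned and another on all suckling arrays, so that what the codes stand for and weaning cannot be told apart.

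With all 7 arrays, the log2 differences between weaned and suckling mice ran from -0.75 for Pdk4 to 0.85 for Pdk1, both kinases, and those of the subunits and pyruvate carboxylase from -0.27 to 0.22. Without weaned replicate 4 the lowest was Pdha1, a subunit, at -0.34, and Pdk4 was at -0.17. Pdk1 and Pdk2 had higher means in weaned mice, Pdk4 and Pdk3 lower means. By limma, 0 of the 10 genes passed an adjusted p of 0.05, a threshold that 0.015% of the 19938 genes passed, and 2 of 10 had an unadjusted p under 0.05, against 7.58% of all genes. Both were higher in weaned mice, the direction of 4.39% of all genes, and 0 were lower, against 3.19%. Those percentages rest on 875 higher and 637 lower genes, which became 728 and 787 after the array medians were aligned. For 1 of the 10 genes, Pdk1, the groups did not overlap, against 7.32% of all genes, 3.9% higher and 3.43% lower in weaned mice. In all, 7 of the 10 had a higher and 3 a lower mean after early weaning, where 50.1% of all genes had a higher mean. Their median log2 difference was 0.14, where that of all genes was 0.00047. Among the brighter 9969 genes, which hold all 10, the median was 0.038. Of those 9969 genes 9.11% had an unadjusted p under 0.05 by limma, 609 higher and 299 lower in weaned mice.

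**Figure D1:**
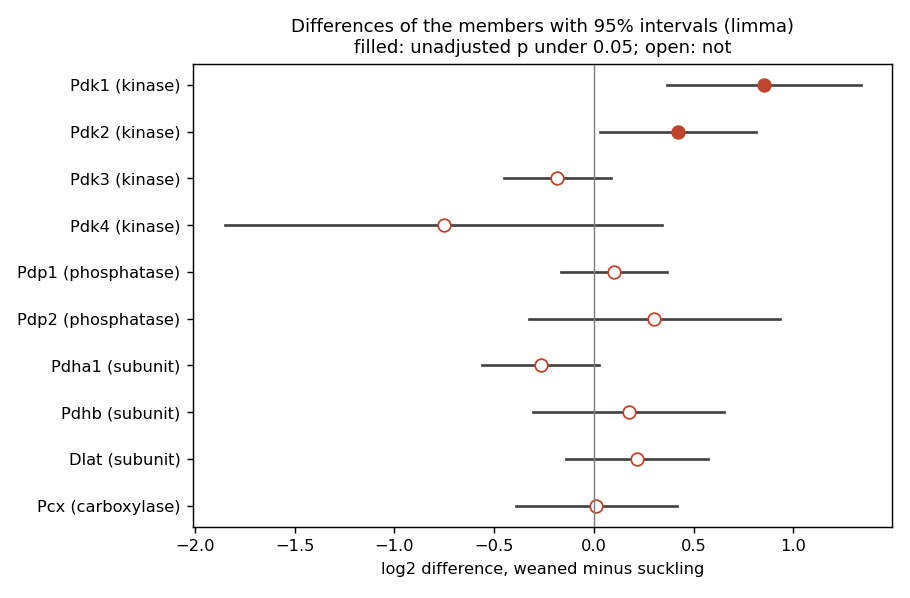
Log2 difference, weaned minus suckling, of the 10 genes (points) with the 95% interval from limma (bars), in the order kinases, phosphatases, subunits, carboxylase; filled points have an unadjusted p under 0.05. The intervals of Pdk1 (0.37 to 1.34) and Pdk2 (0.033 to 0.81) lie above 0, and that of Pdk4 (-1.85 to 0.34) is the widest.

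Pdk1 is a pyruvate dehydrogenase kinase whose transcription is known to be induced by hypoxia-inducible factor. On weaned replicates 4, 5 and 12 it had 6.18, 5.86 and 5.82 log2 units, against 4.69, 4.83, 5.60 and 5.27 on suckling replicates 2, 9, 11 and 12. Every weaned array was above every suckling array, and suckling replicate 11 came closest. The means were 5.95 ± 0.20 log2 units in weaned mice (SD, n = 3) and 5.10 ± 0.42 in suckling mice (SD, n = 4), a 1.81-fold difference. By limma the log2 difference was 0.85 (SE 0.22, 95% interval 0.37 to 1.34, unadjusted p = 0.0031, adjusted p = 0.449). Of all genes, 0.371% had a difference at least as wide in either direction.

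The suckling arrays with the lowest Pdk1 were replicates 2 and 9, on which acinar signal was also strongest. With the acinar mean as a covariate the Pdk1 difference was 0.54 (SE 0.16, limma, unadjusted p = 0.0089, adjusted p = 0.725), and without those 2 arrays it was 0.51 (SE 0.17, unadjusted p = 0.024, adjusted p = 0.902). Weaned replicate 12 had more acinar signal (5.94) than suckling replicates 11 and 12 (4.10 and 5.06) and also more Pdk1 (5.82, against 5.60 and 5.27). Within the suckling group Pdk1 fell as acinar signal rose, in the order replicates 11, 12, 9 and 2. Within the weaned group replicate 12 had the most acinar signal and the lowest Pdk1. Weaned replicate 4 had more of both than weaned replicate 5. A link between acinar signal and Pdk1 was not tested. As all 13 acinar markers had a lower mean in weaned mice, acinar content and weaning cannot be fully told apart. Without suckling replicates 2 and 9, 1 of the 10 genes, Pdk1, had an unadjusted p under 0.05 by limma, against 5.46% of all genes. The differences of the other kinases were then 0.30 for Pdk2, -0.29 for Pdk3 and -0.66 for Pdk4, and those of the phosphatases -0.014 for Pdp1 and 0.50 for Pdp2. Among the subunits Pdha1 was at -0.34, Pdhb at 0.057 and Dlat at 0.25, and Pcx was at 0.069.

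**Figure D2:**
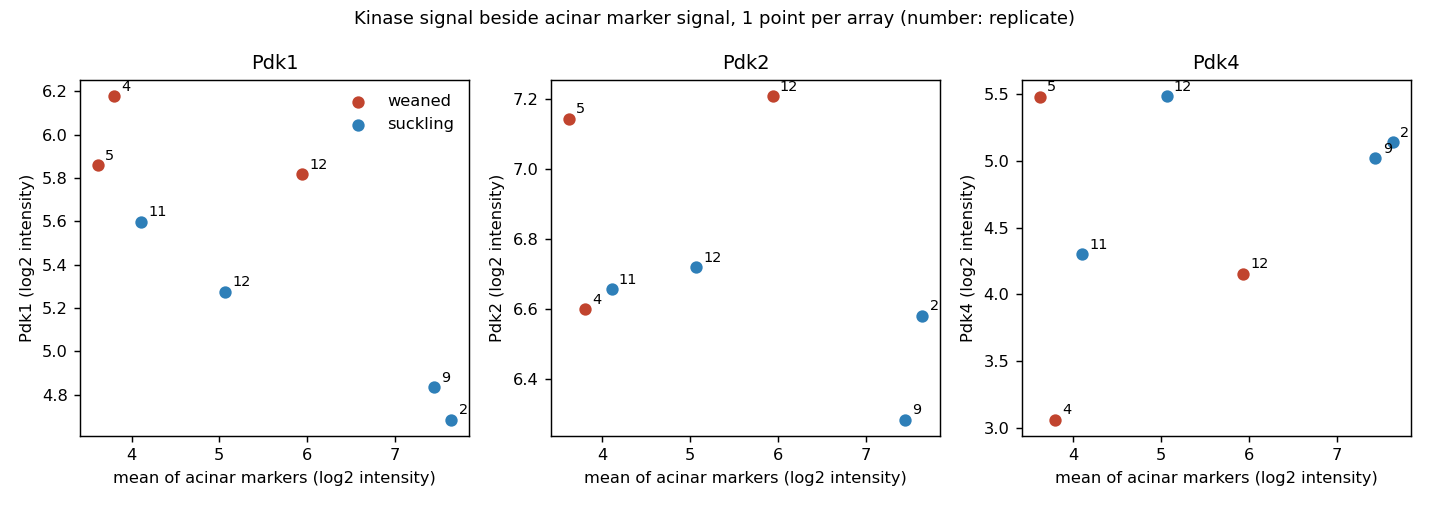
Log2 intensity of Pdk1, Pdk2 and Pdk4 (vertical axes) beside the mean log2 intensity of 13 acinar markers (horizontal axes), 1 point per array, labelled with its replicate number. In the Pdk1 panel suckling replicates 2 and 9 sit at the lower right (acinar means 7.64 and 7.44, Pdk1 4.69 and 4.83), while Pdk4 is high on those arrays (5.14 and 5.02) and also on weaned replicate 5 (5.48), which had the least acinar signal (3.62).

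Pdk2, the most broadly expressed of the kinases, had 6.60, 7.14 and 7.21 log2 units on weaned replicates 4, 5 and 12, against 6.58, 6.28, 6.66 and 6.72 on suckling replicates 2, 9, 11 and 12. Weaned replicates 5 and 12 were above all suckling arrays, and weaned replicate 4 lay among them. The means were 6.98 ± 0.33 in weaned mice (SD, n = 3) and 6.56 ± 0.19 in suckling mice (SD, n = 4), a difference of 0.42 (SE 0.17, limma, unadjusted p = 0.036, adjusted p = 0.64). Its unadjusted p did not stay under 0.05 without weaned replicate 5 (difference 0.34), weaned replicate 12 (0.31), suckling replicate 2 (0.43) or suckling replicate 9 (0.33), nor without both of the last (0.30), nor with the acinar (0.39) or immediate early (0.38) covariate. That of Pdk1 stayed under 0.05 in all 21 alternative settings, and that of Pdk2 in 14 of the 21.

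Pdk4 is the kinase known for induction by fasting and by fatty acids through PPAR and FoxO factors. On weaned replicates 4, 5 and 12 it had 3.06, 5.48 and 4.16 log2 units, against 5.14, 5.02, 4.30 and 5.49 on suckling replicates 2, 9, 11 and 12. The weaned arrays spanned almost the whole range, from background on replicate 4 to nearly the highest value of all on replicate 5. Means were 4.23 ± 1.21 in weaned (SD, n = 3) and 4.99 ± 0.50 in suckling mice (SD, n = 4), with a log2 difference of -0.75 (SE 0.49, 95% interval -1.85 to 0.34, limma, unadjusted p = 0.156, adjusted p = 0.763). Without weaned replicate 5 the difference was -1.38 (unadjusted p = 0.0068, adjusted p = 0.677), and without weaned replicate 4 it was -0.17 (unadjusted p = 0.692), so that single weaned mice set its size.

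Pdk3, an X-linked kinase, was nearly level on the weaned arrays at 5.63, 5.56 and 5.60 log2 units on replicates 4, 5 and 12, against 5.62, 5.73, 5.76 and 6.002 on suckling replicates 2, 9, 11 and 12. Suckling replicate 2 was within the weaned range and the other suckling arrays were above it. The difference was -0.18 (SE 0.12, 95% interval -0.45 to 0.085, limma, unadjusted p = 0.157, adjusted p = 0.765).

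Pdk1 was also set against other members within each array, for pairs chosen with the value of Pdk1 known. On weaned replicates 4, 5 and 12, Pdk1 minus Pdk3 came to 0.55, 0.30 and 0.22 log2 units, against -0.93, -0.90, -0.16 and -0.73 on suckling replicates 2, 9, 11 and 12. Its sign was positive on all weaned and negative on all suckling arrays, although levels of different probe sets cannot be set against each other, so that only the shift of 1.04 between groups can be read. In an exact two-sided permutation test, which enumerated all 35 ways to divide the arrays, that shift had p = 0.0571 (adjusted p = 0.114 over 4 comparisons), where the smallest p possible is 0.0286. The shift was 1.61 for Pdk1 minus Pdk4 (exact permutation p = 0.0857, adjusted p = 0.114) and 0.43 for Pdk1 minus Pdk2 (exact permutation p = 0.314, adjusted p = 0.314). For Pdk1 minus Pdha1, a kinase against its substrate, it was 1.12, with all weaned arrays (-1.08 to -1.20) above all suckling arrays (-2.66 to -1.99) (exact permutation p = 0.0286, adjusted p = 0.114). Over 4 comparisons a single pair cannot go below an adjusted p of 0.114, nor 2 pairs below 0.0571, and Pdk1 was already known not to overlap, so these p-values are given as a description and decide nothing.

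The promoters of Pdk1, Pdk2 and Pdk4 are shown because these kinases had the 3 widest differences of the 10 genes. The 250 bases before the most upstream RefSeq start were read 5′ to 3′ on the gene's strand (GRCm38.p6), and capitals mark motif matches on either strand. The Pdk1 window is chr2:71872974-71873223 on the plus strand, the Pdk2 window chr11:95041372-95041621 on the minus strand and the Pdk4 window chr6:5496279-5496528 on the minus strand.
Pdk1: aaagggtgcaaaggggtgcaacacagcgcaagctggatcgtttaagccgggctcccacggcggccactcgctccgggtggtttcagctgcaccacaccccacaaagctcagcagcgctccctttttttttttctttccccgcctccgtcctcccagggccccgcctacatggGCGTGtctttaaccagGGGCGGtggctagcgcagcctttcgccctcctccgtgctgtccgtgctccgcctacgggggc
Pdk2: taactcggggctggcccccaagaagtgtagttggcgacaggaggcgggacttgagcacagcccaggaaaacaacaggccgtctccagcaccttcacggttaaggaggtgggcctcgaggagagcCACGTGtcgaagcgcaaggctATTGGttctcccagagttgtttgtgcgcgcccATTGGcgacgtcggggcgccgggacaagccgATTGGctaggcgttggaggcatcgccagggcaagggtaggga
Pdk4: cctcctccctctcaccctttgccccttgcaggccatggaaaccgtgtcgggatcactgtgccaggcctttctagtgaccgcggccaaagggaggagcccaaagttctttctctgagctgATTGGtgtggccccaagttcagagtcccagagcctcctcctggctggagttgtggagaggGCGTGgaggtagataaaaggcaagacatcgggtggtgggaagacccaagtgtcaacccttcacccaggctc

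The letters searched were ACGTG and GCGTG (the forms of the hypoxia response core), GGGCGG of the GC box, the CCAAT box, TATAAA of the TATA box, GTAAACA of FoxO sites and the nuclear receptor half-site AGGTCA. The Pdk1 window held GCGTG at 78 and GGGCGG at 62 bases before the start. The Pdk2 window held ACGTG on both strands, overlapping in 1 palindrome 126 bases before the start, and CCAAT 3 times on the opposite strand, at 105, 73 and 42 bases. The Pdk4 window held GCGTG at 71 bases and CCAAT on the opposite strand at 131 bases. Either form of the hypoxia core was in the windows of 8 of the 9 genes with a promoter in the table (Pdp1 has none there) and in 38.6% of all 32841 promoter windows, and GGGCGG was in 6 of 9 against 32.7%. CCAAT was in 6 of 9 against 33.9%. The TATA box, FoxO and half-site motifs were in 0 of 9, against 12.4%, 3.17% and 14% of all windows. These windows are rich in G and C, at 64%, 62.4% and 58.8% for Pdk1, Pdk2 and Pdk4 against a median of 52.4%, and a match is a run of letters only. The shares of all windows count every start of a gene, whereas those of the 9 genes take the most upstream start alone. The 9 genes have 12 windows in all, and the further windows of Pdk1, Pdk2 and Pcx held none of these motifs. The shares are therefore not on a like basis.

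The phosphatases, which reverse the kinases, did not pass the test. Pdp1, the calcium-stimulated isoform, had 6.56, 6.44 and 6.53 log2 units on weaned replicates 4, 5 and 12, against 6.31, 6.27, 6.44 and 6.61 on suckling replicates 2, 9, 11 and 12. The weaned values lay inside the suckling range, with a difference of 0.10 (SE 0.12, 95% interval -0.16 to 0.37, limma, unadjusted p = 0.41, adjusted p = 0.873). Pdp2 had 4.94, 4.83 and 5.08 log2 units on weaned replicates 4, 5 and 12, against 4.95, 4.74, 5.12 and 3.78 on suckling replicates 2, 9, 11 and 12. Suckling replicate 12 alone was low, and the difference of 0.30 (SE 0.28, limma, unadjusted p = 0.304, adjusted p = 0.845) was 0.015 without that array.

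**Figure D3:**
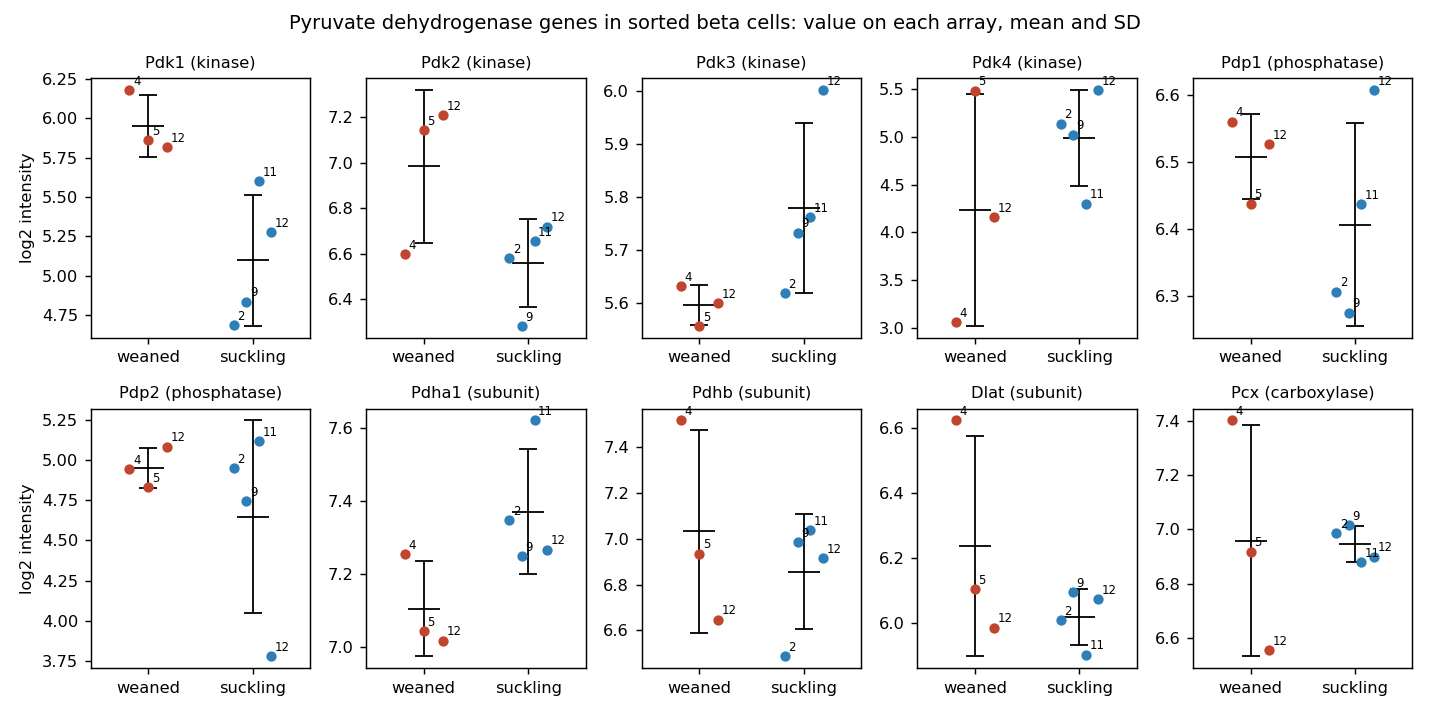
Log2 intensity (vertical axes, a separate scale for each gene) of the 10 genes on each weaned (red, left) and suckling (blue, right) array, labelled with replicate numbers; black bars are means with SD. Pdk1 is the gene whose groups do not overlap, Pdk4 spans 3.06 to 5.48 among weaned mice, and weaned replicate 4 is at the top for Pdk1, Pdhb, Dlat and Pcx.

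Among the subunits, Pdha1, the X-linked E1 alpha subunit that carries the regulatory phosphorylation sites, was lower by mean in weaned mice. It had 7.25, 7.04 and 7.02 log2 units on weaned replicates 4, 5 and 12, against 7.35, 7.25, 7.62 and 7.27 on suckling replicates 2, 9, 11 and 12. Weaned replicates 5 and 12 were below every suckling array, and weaned replicate 4 was level with the lowest. The difference was -0.27 (SE 0.13, 95% interval -0.56 to 0.025, limma, unadjusted p = 0.0689, adjusted p = 0.68). Its unadjusted p was under 0.05 with the acinar covariate (-0.37), without weaned replicate 4 (-0.34) and on the log2 scale after adding 16 (-0.24), with adjusted p of 0.862, 0.63 and 0.606 by limma.

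Pdhb, the E1 beta subunit, and Dlat, the acetyltransferase core of the complex, had SDs of 0.443 and 0.341 log2 units in weaned mice, against 0.25 and 0.0869 in suckling mice. Pdhb had 7.52, 6.93 and 6.65 log2 units on weaned replicates 4, 5 and 12, against 6.49, 6.98, 7.04 and 6.91 on suckling replicates 2, 9, 11 and 12. Dlat had 6.62, 6.10 and 5.98 log2 units on weaned replicates 4, 5 and 12, against 6.01, 6.10, 5.90 and 6.07 on suckling replicates 2, 9, 11 and 12. In both genes weaned replicate 4 stood above the other 6 arrays, which overlapped. The differences were 0.18 (SE 0.21, limma, unadjusted p = 0.429) for Pdhb and 0.22 (SE 0.16, unadjusted p = 0.199) for Dlat, and without weaned replicate 4 they were -0.066 and 0.025.

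Pcx, pyruvate carboxylase, had 7.40, 6.92 and 6.56 log2 units on weaned replicates 4, 5 and 12, against 6.98, 7.02, 6.88 and 6.90 on suckling replicates 2, 9, 11 and 12. The suckling arrays lay within 0.137 log2 units of each other while the weaned arrays spanned 0.846 on both sides of them. The means were 6.96 ± 0.42 in weaned (SD, n = 3) and 6.94 ± 0.066 in suckling mice (SD, n = 4), and the difference was 0.013 (SE 0.18, 95% interval -0.39 to 0.42, limma, unadjusted p = 0.944). Weaned replicate 4 was thus the highest array for 4 of the 10 genes, Pdk1, Pdhb, Dlat and Pcx, and the lowest for Pdk4, where 17.1% of all genes were highest and 17.2% lowest on it. It had low acinar signal (3.80) and an alpha, delta and PP cell mean of 8.85, inside the range of the other arrays.

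**Figure D4:**
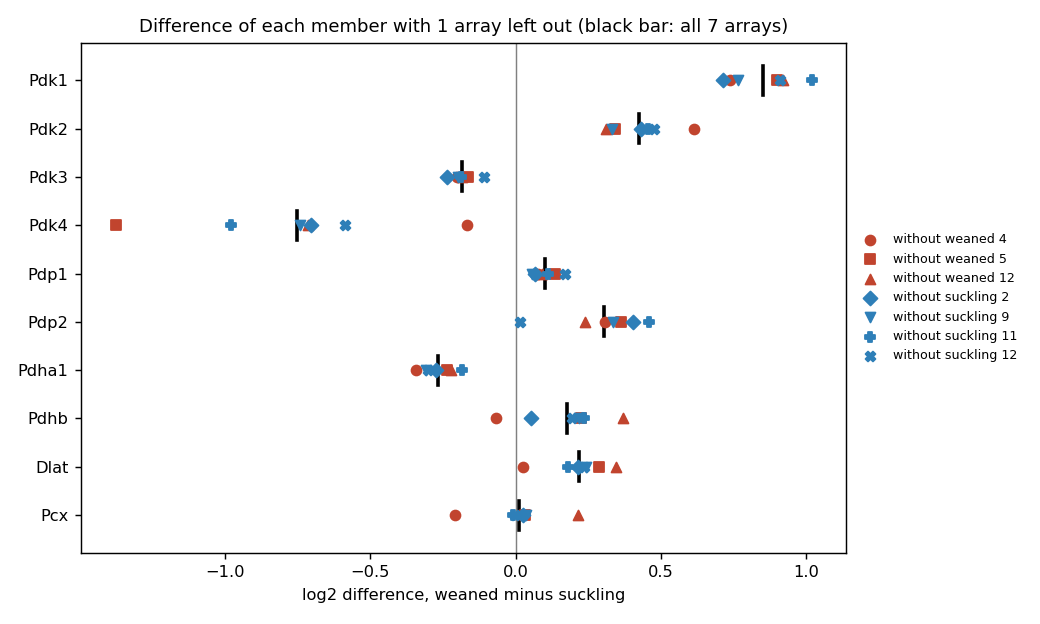
Log2 difference, weaned minus suckling (horizontal axis), of each gene with 1 array left out (symbols, red for weaned and blue for suckling arrays) and with all 7 arrays (black bars). Pdk1 stays between 0.72 and 1.02, Pdk4 runs from -1.38 to -0.17, and the values for Pdhb and Pcx lie on both sides of 0.

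As Pdha1 and Pdk3 are X-linked, the sex-linked transcripts were read beside them. Xist was high on weaned replicate 5 and suckling replicates 2 and 11 and at background on the other 4 arrays, on which the Y-linked genes were high except for weaned replicate 12. That array had neither signal, at 2.52 log2 units for Xist and a Y-linked mean of 2.26. With the Y-linked mean as a covariate, Pdha1 differed by -0.27 (SE 0.14, limma, unadjusted p = 0.0798) and Pdk3 by -0.16 (SE 0.12, unadjusted p = 0.212), close to their values without it. This covariate places weaned replicate 12 with the Xist-high arrays, so it does not measure X status, and an effect of sex was not tested.

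The genes whose profile over the 7 arrays came nearest to that of Pdk1, the gene with the smallest p of the 10, were Pias3, a SUMO ligase and STAT inhibitor, Arrdc1, an arrestin-domain adaptor, Cenps, a centromere protein, Chmp4c, an ESCRT-III subunit, and Pmf1, a kinetochore protein. Likeness was the root-mean-square distance of log2 values centred on each gene's mean, which was 0.174, 0.187, 0.196, 0.197 and 0.203 for these genes. Pias3 had 6.002, 5.87 and 5.75 log2 units on weaned replicates 4, 5 and 12, against 4.99, 5.09, 5.81 and 5.21 on suckling replicates 2, 9, 11 and 12. Like Pdk1 it was lowest on suckling replicates 2 and 9. As these genes were picked for their likeness to Pdk1 on the same arrays, a shared order of arrays follows from the choice.

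The other genes around pyruvate had small differences in both directions. Of 30 genes listed for pyruvate supply, transport and use, 27 were measured, 13 with a higher and 14 with a lower mean after early weaning, and their median log2 difference was -0.0054. Single arrays set that balance: without suckling replicate 12 it was 19 higher and 8 lower with a median of 0.10, and without weaned replicate 12 it was 15 and 12 with a median of 0.073. By limma 0 passed an adjusted p of 0.05, and 2 of 27 had an unadjusted p under 0.05, 1 in each direction, where 7.58% of all genes did. Ldhb, a lactate dehydrogenase subunit, had 5.41 ± 0.40 log2 units in weaned (SD, n = 3) and 4.98 ± 0.09 in suckling mice (SD, n = 4), a difference of 0.43 (SE 0.17). Without weaned replicate 4 it was 0.20; leaving out single arrays for the genes of these lists was chosen after the data were seen. Acly, which makes cytosolic acetyl-CoA from citrate, had 10.34 ± 0.25 in weaned and 10.69 ± 0.064 in suckling mice, a difference of -0.35 (SE 0.13), which was -0.22 without weaned replicate 12. Me2, a mitochondrial malic enzyme, and the lactate transporter gene Slc16a3 came next, at 0.27 (SE 0.13, and 0.16 without weaned replicate 4) and 0.23 (SE 0.12). The remaining parts of the complex, named here for their role after their values were seen, were at -0.11 (SE 0.12) for Dld, the E3 subunit, at -0.0054 (SE 0.25) for Pdhx, the E3-binding protein, and at 0.12 (SE 0.16) for Pdpr, the regulatory subunit of the phosphatase. Mpc1 of the mitochondrial pyruvate carrier was at 0.017 (SE 0.13), and Pdha2, the testis form of E1 alpha, was at background in both groups.

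The sister complexes use the same chemistry on other keto acids, and the kinase and phosphatase of the branched-chain complex were listed with them. The median of this list was 0.062 over 9 of 9 genes, 6 higher and 3 lower by mean. Without suckling replicate 9 it was -0.014, with 4 higher and 5 lower. By limma 0 of the 9 passed an adjusted p of 0.05 and 0 had an unadjusted p under 0.05, where 0.015% and 7.58% of all genes did. Smallest in p were Ogdhl, an oxoglutarate dehydrogenase-like protein (0.28, SE 0.16), the phosphatase gene Ppm1k (0.20, SE 0.15), the acyltransferase gene Dbt (0.18, SE 0.14) and Bckdk, the branched-chain counterpart of the kinases (0.12, SE 0.12). Each of these 4 moved by over 1.5 times with at least 1 array left out, Ppm1k the most, to 0.016 without weaned replicate 4.

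Genes known as targets of hypoxia-inducible factor, a class to which Pdk1 belongs, were split by direction. Of 24 listed symbols 22 were measured, 10 higher and 12 lower by mean, with a median of -0.027, and 5 of them at background in both groups. Without suckling replicate 12 the median was 0.050, with 12 higher and 10 lower. Over every single-gene probe set of these genes the median was -0.058, with 10 probe sets higher and 16 lower. By limma 0 passed an adjusted p of 0.05 and 3 of 22 had an unadjusted p under 0.05, where 7.58% of all genes did. These were Ankrd37, an ankyrin-repeat gene, at 7.06 ± 0.28 log2 units in weaned (SD, n = 3) and 6.62 ± 0.10 in suckling mice (SD, n = 4), a difference of 0.45 (SE 0.14), the aldolase gene Aldoc (0.44, SE 0.17) and Pgk1, phosphoglycerate kinase, at 8.53 ± 0.15 in weaned and 8.82 ± 0.066 in suckling mice (-0.29, SE 0.11). Ankrd37 was at 0.29 without weaned replicate 12, and Aldoc at 0.29 without weaned replicate 4. Mxi1, a repressor of MYC activity, was at 0.24 (SE 0.12).

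Targets of PPAR and FoxO factors, a class to which Pdk4 belongs, had a median of 0.13 over 16 of 19 genes, 11 higher and 5 lower by mean. Pdk4 itself was at -0.75 (SE 0.49), and at -0.17 without weaned replicate 4. By limma 0 passed an adjusted p of 0.05 and 3 of 16 had an unadjusted p under 0.05, where 7.58% of all genes did. Cpt1a, which admits fatty acids to mitochondria, had 5.37 ± 0.067 log2 units in weaned (SD, n = 3) and 5.02 ± 0.15 in suckling mice (SD, n = 4), a difference of 0.35 (SE 0.12), and Plin2, a lipid droplet coat protein, was at 0.28 (SE 0.12). The fatty acid transporter gene Cd36 was the third, lower by mean in weaned mice (-0.40, SE 0.15) and at background in both groups. The thioesterase gene Acot2 was at 0.47 (SE 0.24), and at 0.22 without suckling replicate 12. The median of this list was 0.060 with the acinar and 0.059 with the immediate early covariate, 0.062 without weaned replicate 4, 0.066 without suckling replicate 2 and 0.072 without suckling replicates 2 and 9.

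Of the 12 transcription factors and coactivators known to act on the kinase genes, 9 had a higher and 3 a lower mean, with a median of 0.055 and differences from -0.14 to 0.15. Without suckling replicate 2 the split was 6 to 6 with a median of 0.015, and without suckling replicates 2 and 9 it was 6 to 6 with a median of -0.0049. By limma 0 passed an adjusted p of 0.05 and 0 had an unadjusted p under 0.05, where 0.015% and 7.58% of all genes did. Those smallest in p were Esrra, an orphan nuclear receptor (0.14, SE 0.17), the glucocorticoid receptor gene Nr3c1 (0.11, SE 0.14), and Ppargc1a and Ppara, which were at background in both groups. Hif1a, which encodes the hypoxia-inducible factor subunit and was named after its value was seen, was at -0.054 (SE 0.18). With single arrays left out Esrra ran from 0.018 to 0.25, Nr3c1 from 0.052 to 0.21 and Hif1a from -0.18 to 0.11.

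**Figure D5:**
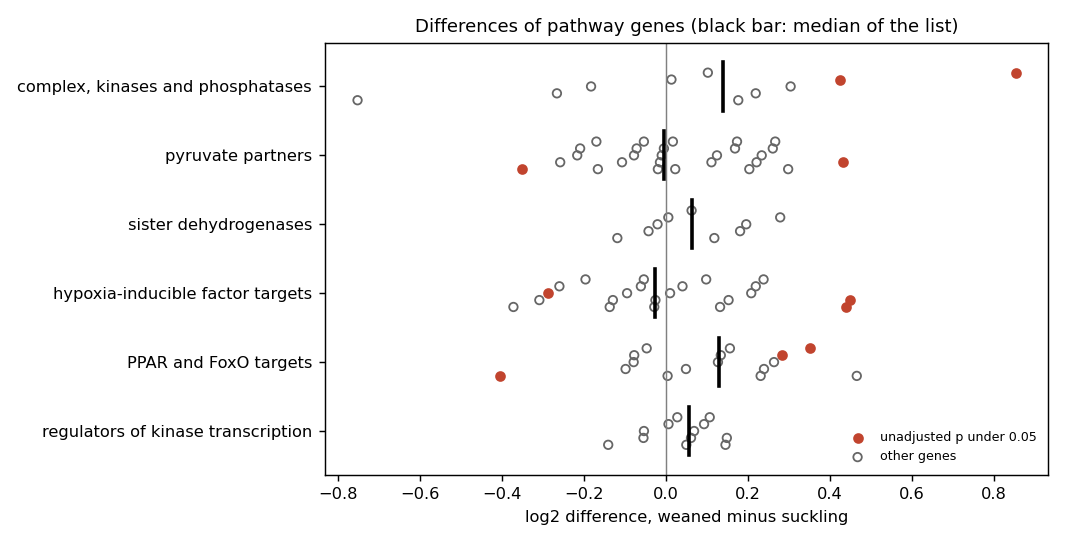
Log2 difference, weaned minus suckling (horizontal axis), of each measured gene in the 10-gene set and in 5 related lists (rows); filled points have an unadjusted p under 0.05 and black bars are list medians. List medians run from -0.027 to 0.14, and Pdk1 (0.85) and Pdk4 (-0.75) lie at the outer ends with all 7 arrays.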

How the data were processed

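The deposited intensity values, 1 per probe set and array, were made by the authors with RMA and Partek 6.6, per the submitters' processing notes, which give no settings. They are on a linear scale (1.45 to 12755), so log2 was taken. RMA pulls the differences of dim probe sets towards 0. Probe sets were named from the platform annotation, updated by gene ID through RefSeq (GRCm38.p6). Of 35556 probe sets 21789 had 1 symbol, and the brightest per gene left 19938 genes, with no filter.

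Groups were compared with limma 3.58.1 (R 4.3.3) over all genes, two-sided, with Benjamini-Hochberg adjustment at 0.05 and differences as weaned minus suckling. The median standard error was 0.14, and the number of arrays limits the precision. Alternatives were an intensity trend, other normalizations, filters, probe set rules, a log offset of 16, array weights, 4 marker covariates, arrays left out and an adjusted threshold of 0.1. The limma fit was checked on simulated data, and the permutation test was not. Named were the 10 genes, the 4 genes of smallest p per pathway list and the 5 nearest to the gene of smallest p in profile. Genes and lists were chosen with earlier results of these data known. Promoters came from RefSeq. Each array is 1 mouse, and amplification scatter is part of the spread.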

Additional observations from a re-analysis of the deposited data

How the results depend on the processing

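No paired analysis was possible because weaned and suckling mice share 1 replicate number. Over the 21 alternatives that refit the members, Pdk1, Pdk2, Pdk3, Pdk4, Pdp2, Pdha1 and Dlat kept their direction and none passed an adjusted p of 0.05. For Pdk1 the difference ran from 0.51 to 1.02 and the adjusted p from 0.23 to 0.902. Pdp1 was -0.014 without suckling replicates 2 and 9. Pdhb was -0.033 with the acinar covariate and ran from -0.066 to 0.37 with 1 array left out. Pcx was -0.014 after quantile normalization, -0.0067 with medians centred, -0.035 with array weights, -0.054 with the acinar and -0.0043 with the immediate early covariate, and -0.21 to 0.21 with 1 array left out. The cause was not tested.

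The members with an unadjusted p under 0.05 by limma, 2 in all, stood against 7.58% of all genes. They were 1 with the immediate early covariate, against 5.84%, and 1 without suckling replicates 2 and 9, against 5.46%. With 1 array left out they were 1 to 3, against 5.87% to 7.78%. They were 1 without weaned replicate 12, suckling replicate 2 or suckling replicate 9, against 7.66%, 6.82% and 5.87%. The genes past an adjusted p of 0.05, 3 in all, were 9 with an intensity trend, 5 after quantile normalization, 7 and 8 without the dimmest 25% and the dimmer part of genes, 5 with probe sets averaged, 9 over every probe set and 7 at an adjusted p of 0.1. They were 1 to 3 with 1 array left out, and 1 without weaned replicate 4 or 5 or suckling replicate 9, 11 or 12. Without suckling replicates 2 and 9 they were 0 by limma, with 1089 genes at an unadjusted p under 0.05. Values at background, such as Pdk4 on weaned replicate 4, are limited by signal, and their differences may be understated.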

Other observations

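The spread between mice of one group was itself unequal among the genes. The SD of Pdk4 over the 3 weaned arrays was 1.21 log2 units, above that of 99.9% of all genes, and its SD over the 4 suckling arrays, 0.497, was above that of 98.1%. Pdhb and Pcx had weaned SDs of 0.443 and 0.424, above 95.3% and 94.3% of genes, while the suckling SD of Pcx, 0.066, was above that of 7.63% only. Pdk1 and Pdp2 had the opposite arrangement, with weaned SDs of 0.197 and 0.125 (above 57.5% and 31.4% of genes) and suckling SDs of 0.417 and 0.598 (above 95.9% and 99.1%). Weaned replicate 5 had the highest mean of immediate early genes, 6.62 log2 units over 14 of 15 genes, against 5.75 to 5.98 on the other weaned and 5.59 to 6.11 on the suckling arrays, and it was also the weaned array with the highest Pdk4. On other arrays the order differed: suckling replicate 11 had the highest suckling immediate early mean (6.11) and the lowest suckling Pdk4 (4.30). Weaned replicate 4 had a higher immediate early mean than weaned replicate 12 (5.98 and 5.75) and a lower Pdk4 (3.06 and 4.16). With the immediate early mean as a covariate the Pdk4 difference was -1.05 (SE 0.51, limma, unadjusted p = 0.0716). A link between immediate early signal and Pdk4 was not tested. Differences in spread between the groups were not tested.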
